A study of Macaca nemestrina with 58 samples.

Results

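The serpins of squamous epithelium and a serpin of connective tissue were followed in vaginal pinch biopsies of pig-tailed macaques through the menstrual cycle and under hormonal contraception. The members were 8 genes, SERPINB1, SERPINB2, SERPINB3, SERPINB5, SERPINB7, SERPINB12, SERPINB13 and SERPINE2, each read from the array probe sets that the annotation pairs with that gene's symbol alone. Of the 8 genes, 6 had such a probe set, and SERPINB1 and SERPINB3 were not analysed here. The 6 genes had 13 probe sets among the 52707 on the array that are not controls. Of these, 10 passed a filter on low signal that kept 31624 probe sets: 1 each for SERPINB2, SERPINB5 and SERPINB7, 3 for SERPINB13 and 4 for SERPINE2. The only probe set of SERPINB12 was dimmer than the filter allows, and its levels are described without a place in the counts. Where a gene had several probe sets, values are those of its brightest one, and the others are given as a check.

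Serpins are proteins that trap proteases in an irreversible complex by offering them a bait loop. Clade B serpins lack a classical secretion signal and act mostly inside cells and at the surface of squamous epithelium, where they hold serine proteases and lysosomal cysteine proteases in check while keratinocytes mature and shed. SERPINE2, also called protease nexin, is a secreted serpin of the clade that includes plasminogen activator inhibitors; it is held on cell surfaces and matrix by heparan sulphate, inhibits thrombin, urokinase and trypsin-like enzymes, and is made by fibroblasts and smooth muscle cells among others. The vaginal lining is a stratified squamous epithelium over a fibrous and muscular wall, and its thickness follows ovarian hormones.

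Biopsies came from 15 Macaca nemestrina, with rhesus macaque arrays read for 57 samples after a duplicate array was averaged with its partner. Before treatment all 15 animals gave 28 baseline samples, 10 in the early follicular, 5 in the late follicular, 4 in the early luteal and 9 in the late luteal phase. Of these animals 9 then received DMPA (depot medroxyprogesterone acetate, an injected progestin) at doses labelled 0.5, 1.5 or 2.5 with no unit, and gave 8 samples at a time labelled 1D4 and 9 at a time labelled 2D2. The other 6 received LNG (levonorgestrel, the progestin of the combined oral contraceptive named in the study's title), 3 animals labelled High and 3 labelled Low. They gave 6 samples at a time labelled 5th and 6 at a time labelled 7th. The sample labels name no other component of that combined contraceptive, so the arms need not differ in the progestin alone. An unexplained mark, A-, stands in the labels of 5 LNG arrays, 1 from the 5th and 4 from the 7th time. Every animal was on a drug at the later times, so the drug cannot be told apart from elapsed time or from having been biopsied before.

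The arrays were alike in overall signal, with medians between 6.07 and 6.25 on the log2 scale, and their number limits the precision. Markers of stratified squamous epithelium were bright in the baseline, for example KRT13, a keratin of mucosal squamous cells, at 13.96 ± 0.20 (log2, SD, n = 28). The difference between the 3' and 5' control probe sets of GAPDH, which grows as RNA breaks down, was 1.66 ± 0.31 (SD, n = 28) in the baseline and 2.43 ± 0.70 (SD, n = 9) at DMPA 2D2, where 8 of 9 animals exceeded their own baseline. Samples that stand apart were the LNG 5th sample of the Low animal BB4800, in which the mean of 5 basal keratinocyte markers was 10.25 against at least 10.87 in every baseline sample, and the late luteal baseline sample of PPi2, whose mean of 17 suprabasal squamous markers, 9.05, was the lowest of the 28. The 2D2 sample of BB0540, at the dose labelled 2.5, had a GAPDH difference of 3.98 where the next highest 2D2 sample had 2.74, and a like difference for actin of 2.55 where the next had 1.66.

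Levels in each group come first, with clade B before SERPINE2. SERPINB2, an inhibitor of urokinase and tissue plasminogen activator found in keratinocytes and macrophages, ran from 7.52 through a median of 10.29 to 11.57 (log2 signal) in the 28 baseline samples. After DMPA its lowest, median and highest values were 6.16, 7.81 and 10.43 at 1D4 (n = 8) and 5.57, 7.03 and 9.64 at 2D2 (n = 9). Under LNG they were 4.92, 8.10 and 10.26 at the 5th time (n = 6) and 6.30, 8.83 and 10.92 at the 7th (n = 6). Treated and baseline samples overlapped at every time, and at 2D2 6 of the 9 samples were lower than all 17 baseline samples of the DMPA animals. Within the baseline the late follicular values were 9.64, 10.03, 10.30, 10.31 and 10.43, and the early luteal ones 9.83, 10.16, 10.21 and 10.43. These lay inside the range of the early follicular samples, 9.30 to 11.57, and the late luteal group reached lower, with PPi2 at 7.52 and BB967 also under the early follicular range.

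SERPINB5, or maspin, is a clade B serpin of epithelial cells that does not act as a protease inhibitor. Its baseline values lay between 10.33 and 12.46 with a median of 11.42, a narrow range. At 1D4 they were 10.26, 10.88 and 11.59 (lowest, median and highest) and at 2D2 10.28, 10.88 and 11.71, so that the DMPA samples overlapped the baseline widely. At the LNG 5th time 5 samples lay between 10.17 and 11.75, and that of BB4800 was at 5.29, far below every other sample of the series for this gene. At the 7th time the values were 10.06, 11.05 and 11.89, and BB4800 was at 10.56, back among the others. The late follicular values were 11.37, 11.58, 11.83, 11.87 and 12.08 and the early luteal ones 11.10, 11.37, 11.39 and 11.93, while the late luteal samples had a median of 11.25. The phases overlapped.

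SERPINB7 is a clade B serpin of the upper epidermis whose loss causes a thickening of the palms and soles in people. It had the widest spread of the members, from 3.37 to 11.12 with a median of 9.46 in the baseline. Its values fell into a high and a low range within phases, and 2 early follicular and 2 late luteal samples were under 5. At 1D4 6 of 8 samples were between 3.51 and 4.53 and those of BB770 and PPi2 at 8.79 and 8.35. At 2D2 7 of 9 were between 3.35 and 4.82 and the same 2 animals, both at the dose labelled 0.5, were at 7.31 and 7.13. Under LNG the lowest, median and highest values were 3.29, 4.03 and 10.76 at the 5th time and 3.61, 5.56 and 10.76 at the 7th. The late follicular samples, at 9.13, 9.69, 9.73, 10.56 and 10.62, were all high, whereas the early luteal ones were spread over 6.17, 8.09, 10.02 and 10.16. DMPA and baseline samples overlapped because of the low baseline samples, yet no 2D2 sample reached the baseline median.

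SERPINB13, known as headpin or hurpin and an inhibitor of the lysosomal proteases cathepsin L and cathepsin K, ran from 6.64 through 10.96 to 11.82 in the baseline. Apart from the sample of PPi2 at 6.64 and one of BB967 at 8.58, the baseline samples were at 9.83 or more. At 1D4 the lowest, median and highest values were 6.43, 7.84 and 11.21 and at 2D2 5.89, 7.49 and 10.91, with BB770 and PPi2 again on top. At the LNG 5th time they were 4.42, 8.27 and 11.65 and at the 7th 5.96, 9.02 and 11.75. The 2 highest samples at each LNG time came from the High animals BB269 and BB4870 and lay at the level of the baseline. Late follicular samples, at 11.14, 11.34, 11.36, 11.44 and 11.78, formed the tightest group. The early luteal ones were 9.83, 10.79, 10.85 and 11.21.

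SERPINB12, an inhibitor of trypsin-like proteases, was near the floor of the array in most samples and clearly higher in some. Baseline values had a lowest, median and highest of 3.38, 5.13 and 9.63. The late follicular samples were at 4.76, 5.49, 6.05, 7.59 and 8.99 and the early luteal ones at 3.76, 4.13, 4.18 and 6.43. At 2D2 the values were 3.16, 3.51 and 5.63, and at 1D4 3.18, 3.65 and 7.09. The groups overlapped, and the 3 highest values of all, 8.37, 8.99 and 9.63, belonged to follicular samples. LNG samples had medians of 3.74 at the 5th and 3.73 at the 7th time, with BB269 and BB4870 far above the rest, at 6.19 and 7.62 at the 5th and at 7.35 and 8.35 at the 7th.

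SERPINE2 had the opposite arrangement of levels. In the baseline it ran from 7.73 through 9.91 to 11.55. At 1D4 the values were 9.96, 10.75 and 12.13 and at 2D2 9.70, 10.64 and 12.25. At the LNG 5th time they were 8.55, 11.63 and 12.11, and at the 7th 9.99, 10.68 and 11.83. At 2D2 7 of 9 samples were above the median of the DMPA animals' baseline, and 4 or 5 of 9 were so with the other probe sets. At the 5th time 5 of 6 were higher than all 11 baseline samples of the LNG animals, and the sixth, BB4870 with the label A-, was at 8.55. The late follicular samples, at 7.98, 8.39, 8.53, 9.39 and 10.23, lay mostly in the lower part of the baseline, and the early luteal ones were at 8.14, 9.19, 9.88 and 10.02. The single lowest baseline value, 7.73, was an early follicular sample of BB4870. Fewer cells of a type and less RNA per cell cannot be told apart in such bulk biopsies, for this gene and for those of clade B.

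**Figure D1:**
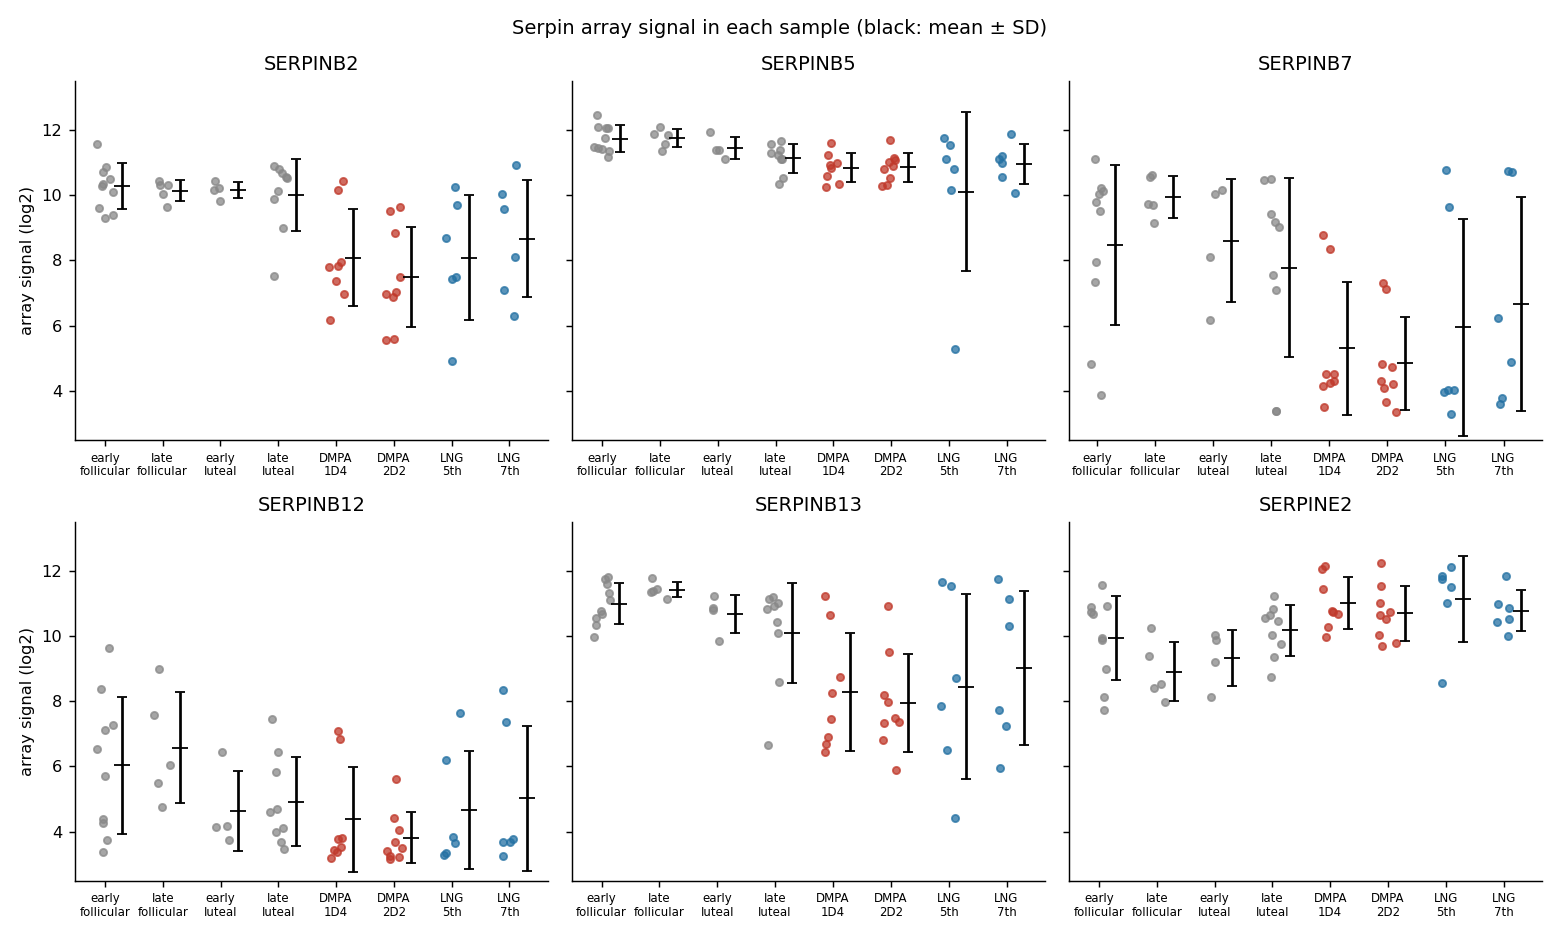
Array signal (log2, vertical axis) of the 6 serpins in each sample, by cycle phase of the baseline (grey), DMPA time (red) and LNG time (blue); points are samples and black bars the mean ± SD. SERPINB2, SERPINB7 and SERPINB13 had lower means in the treated groups, SERPINB5 stayed near 11 apart from 1 LNG sample at 5.29, and SERPINE2 had means of 10.69 to 11.12 in the treated groups against 8.90 to 10.17 in the phases.

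The groups were then ordered by their means. For SERPINB2, SERPINB7 and SERPINB13 all 4 phases stood above all 4 treated groups, and DMPA 2D2 was last, with means of 7.50 ± 1.53, 4.85 ± 1.42 and 7.94 ± 1.49 (SD, n = 9). For SERPINE2 all 4 treated groups stood above all 4 phases, from LNG 5th at 11.12 ± 1.31 (SD, n = 6) down to the late follicular phase at 8.90 ± 0.90 (SD, n = 5). SERPINB5 was split like SERPINB2, SERPINB7 and SERPINB13, with the phases above the treated groups. Its last group was LNG 5th at 10.11 ± 2.43 (SD, n = 6), where BB4800 was at 5.29 and the nearest sample at 10.17. SERPINB12 had no such split: its mean at LNG 7th, 5.02, was above the late luteal 4.92, and that at LNG 5th, 4.65, above the early luteal 4.63. Late follicular samples were first for SERPINB5, SERPINB7, SERPINB12 and SERPINB13. Steps between neighbours in these orders were small: of 42 neighbouring pairs over the 6 genes, 0 differed by more than both groups' SDs and 4 by more than the smaller SD.

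The cycle was compared within the baseline, before any drug was given. From the early follicular to the late luteal phase SERPINB5 was lower in 6 of 6 animals with both phases, by 0.32 to 1.53, and SERPINB13 and SERPINB7 in 5 of 6. SERPINB2 was lower in 2 of 6, with a median difference of 0.28, and SERPINE2 was higher in 4 of 6. The fitted differences were -0.73 ± 0.20 (SE) for SERPINB5, -1.41 ± 0.49 for SERPINB13, -1.91 ± 1.01 for SERPINB7 and -0.38 ± 0.39 for SERPINB2 on the log2 scale, and 0.56 ± 0.29 for SERPINE2. None of the 10 member probe sets passed, with limma adjusted p from 0.0871 for SERPINB5 upward, while 4 had an unadjusted p under 0.05. Of all probe sets 0.152% passed, 0.0949% as higher and 0.0569% as lower. Without the late luteal sample of PPi2 the value for SERPINB13 was -0.81 and that for SERPINB7 -1.19.

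Averaged over both luteal and both follicular phases the differences were -0.46 ± 0.18 (SE) for SERPINB5 (limma adjusted p = 0.134), -0.70 ± 0.44 for SERPINB13 (adjusted p = 0.326) and 0.09 ± 0.25 for SERPINE2 (adjusted p = 0.848). By limma 0 of 10 probe sets passed and 1 had an unadjusted p under 0.05, where 3.04% of all probe sets passed, 2.1% as higher and 0.939% as lower. Across the 4 phases at once SERPINE2 had the smallest p of the 5 genes (limma F test, adjusted p = 0.0845), followed by SERPINB5 (adjusted p = 0.136). In that test 0 member probe sets passed, 6 had an unadjusted p under 0.05, and 0.768% of all probe sets passed. SERPINB12, fitted without the filter on low signal, had a late luteal minus early follicular difference of -2.45 ± 0.49 (log2, SE; limma adjusted p = 0.0756), with 5 of 6 animals lower.

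Under DMPA at 2D2 the clade B genes SERPINB2, SERPINB7 and SERPINB13 fell together and SERPINE2 did not pass the test. SERPINB2 was 6.05-fold lower than the baseline of the same animals (log2 -2.60 ± 0.48, SE; limma adjusted p = 0.00034), SERPINB7 11.2-fold lower (-3.49 ± 0.76; adjusted p = 0.0013) and SERPINB13 6.39-fold lower (-2.68 ± 0.58; adjusted p = 0.00124). Each of the 3 was lower in 8 of 9 animals, with PPi2 as the exception each time. That exception rests on its late luteal baseline sample: for SERPINB2, SERPINB7 and SERPINB13 its 2D2 values, 9.52, 7.13 and 9.52, were below its early follicular values, 10.36, 9.51 and 11.58, and above its late luteal ones, 7.52, 3.37 and 6.64. Without that late luteal sample the fitted differences were -2.84, -3.92 and -3.01. Without BB0540 that of SERPINB7 was -3.10. The mean of SERPINB7 at 2D2, 4.85, lay under the filter's cut of 5.53, so this gene passed the filter through its brighter samples. So near the floor of the array its fold is not a precise size. SERPINB5 differed by -0.65 ± 0.34 (adjusted p = 0.144), and SERPINE2 by 0.68 ± 0.31 (adjusted p = 0.0911), higher in 7 of 9 animals. The other 2 probe sets of SERPINB13 gave -2.99 and -3.01. Those of SERPINE2 gave 0.52 to 0.69, none of them past the threshold. In all, 5 of 10 member probe sets passed, all of them lower, where 28.1% of all probe sets passed, 16% as higher and 12.1% as lower.

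The clade B falls at 2D2 went with a fall of other genes of the upper squamous layers and with a larger GAPDH 3' to 5' difference. Of 17 suprabasal squamous markers 15 fell and 0 rose, with a median log2 change of -3.65, and their summed level, as the mean over the markers, ran from 7.34 to 11.90 at 2D2 against 9.05 to 13.10 in the baseline. Adding that mean as a covariate left SERPINB2 at -0.11, SERPINB7 at 0.43 and SERPINB13 at 0.73 (adjusted p = 1 each), and with the GAPDH difference as a covariate they were at -1.16, -1.19 and -0.53 (adjusted p = 0.517, 0.678 and 0.801). With either covariate 0 member probe sets and 0 of all probe sets passed. Either covariate thus ended every call on the array at this time, so these fits cannot single out the serpins. The part of RNA quality in these falls was not tested. Basal keratinocyte markers did not fall: of 5 measured, 3 rose and 0 fell.

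At the 1D4 time SERPINB2, SERPINB7 and SERPINB13 fell and SERPINE2 rose. SERPINB2 was 3.89-fold lower (log2 -1.96 ± 0.51, SE; limma adjusted p = 0.00863), SERPINB7 9.72-fold lower (-3.28 ± 0.80; adjusted p = 0.0065) and SERPINB13 5.20-fold lower (-2.38 ± 0.61; adjusted p = 0.00825), each in 7 of 8 animals. The exception was again PPi2, whose 1D4 values, 10.17, 8.35 and 10.64, also lay between its 2 baseline samples. SERPINE2 was 2.12-fold higher (1.08 ± 0.33; adjusted p = 0.0181), in 7 of 8 animals. SERPINB5 was at -0.69 ± 0.36 (adjusted p = 0.149). The mean of SERPINB7 at 1D4, 5.30, was again under the filter's cut, which limits its fold as at 2D2. Of 10 member probe sets 9 passed, the 5 of SERPINB2, SERPINB7 and SERPINB13 as lower and all 4 of SERPINE2 as higher, where 23.2% of all probe sets passed, 11.9% as lower and 11.3% as higher. Leaving out 1 animal took the count to 4 without PHQ1 and to 5 without BB0499, and ended the calls of SERPINE2 (adjusted p = 0.058 without PHQ1 and 0.0548 without BB0499) and of SERPINB2 (adjusted p = 0.0511 without PHQ1).

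As at 2D2, other genes of the upper squamous layers were lower at 1D4: 14 of 17 suprabasal markers fell and 0 rose, and their mean ran from 7.74 to 12.70. The GAPDH difference was larger than in the baseline in 6 of 8 animals. With the suprabasal mean as a covariate 0 member probe sets passed, and with the GAPDH difference 4 did, SERPINB2 (adjusted p = 0.0504) and SERPINE2 (adjusted p = 0.077) not among them. The number of all probe sets passing with these covariates is not given here.

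Connective tissue markers are given beside SERPINE2. At 1D4 the mean of 18 fibroblast and smooth muscle markers, called the stroma score here, exceeded its baseline in 6 of 8 animals, by 1.11 on average over the 8, and ran from 7.89 to 12.27 at 1D4 against 7.51 to 11.10 in the baseline. Of its genes 1 of 7 smooth muscle markers passed, as higher, and 0 of 11 fibroblast markers did. With the stroma score as a covariate SERPINE2 was at 0.47 (adjusted p = 0.229) and 0 member probe sets passed. At 2D2 only 3 of 9 animals had a raised stroma score, with a mean change of -0.01, 0 of its 18 genes passed, and with it as a covariate SERPINE2 was at 0.65 (adjusted p = 0.0188). The difference between the 2 DMPA times did not pass for any member: it was -0.40 ± 0.37 for SERPINE2 and between -0.64 and 0.04 for the clade B genes, with 0 of 10 probe sets passing, 0 with an unadjusted p under 0.05, and 0% of all probe sets.

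The 2D2 samples were also set against the luteal and the follicular baseline separately. Against the luteal baseline SERPINB2 (log2 -2.86 ± 0.55, SE), SERPINB7 (-3.62 ± 0.84) and SERPINB13 (-2.75 ± 0.61) were lower (limma adjusted p = 0.00123, 0.00523 and 0.00352), and SERPINE2 was at 0.86 ± 0.34 (adjusted p = 0.0932). Against the follicular baseline all 5 genes passed: SERPINB2 at -2.61 ± 0.54, SERPINB5 at -0.95 ± 0.37, SERPINB7 at -4.20 ± 0.83 and SERPINB13 at -3.19 ± 0.60 were lower and SERPINE2 at 1.00 ± 0.34 was higher. Their adjusted p were 0.000343, 0.04, 0.000202, 0.000116 and 0.0165. That made 5 of 10 probe sets against the luteal baseline, where 10.6% of all probe sets passed (5.58% higher, 5.03% lower), and 9 of 10 against the follicular one, where 40.2% did (21.4% higher, 18.8% lower). The probe set that did not pass against the follicular baseline was another of SERPINE2, at 0.74 ± 0.42 (limma adjusted p = 0.153). Leaving out BB0499 ended the calls of SERPINB5 (adjusted p = 0.0972) and SERPINE2 (adjusted p = 0.0775) against the follicular baseline and left 5 probe sets, and the call of SERPINB5 was also lost without any 1 of 8 other animals. These comparisons share the 2D2 samples.

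**Figure D2:**
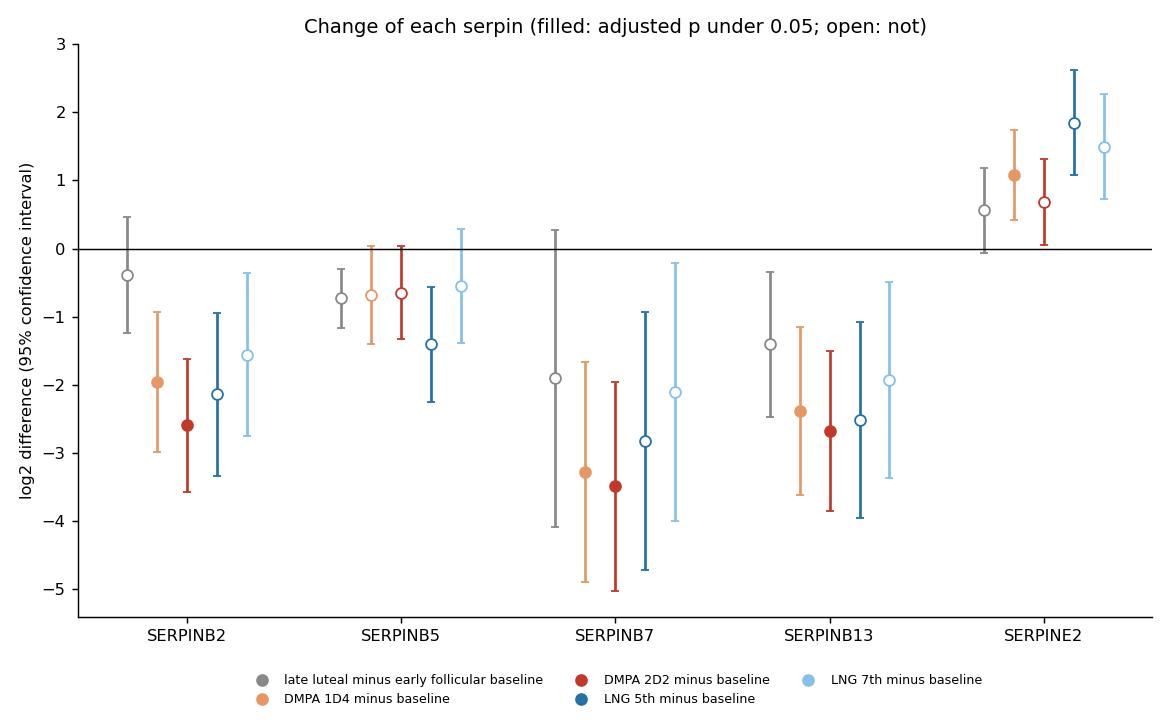
Fitted log2 differences (vertical axis) with 95% confidence intervals for 5 serpins in 5 comparisons; filled points passed at an adjusted p under 0.05 and open ones did not. Filled points are SERPINB2, SERPINB7 and SERPINB13 at both DMPA times and SERPINE2 at 1D4; the LNG estimates of SERPINE2, 1.85 and 1.49, are open.

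Under LNG no member passed, although the estimates had the same signs as under DMPA. At the 5th time SERPINB2 was at -2.14 ± 0.59 (log2, SE; limma adjusted p = 0.0578), SERPINB5 at -1.41 ± 0.42 (adjusted p = 0.0638), SERPINB7 at -2.82 ± 0.93 (adjusted p = 0.0823) and SERPINB13 at -2.51 ± 0.71 (adjusted p = 0.06). SERPINE2 was at 1.85 ± 0.38, with 6 of 6 animals higher. Its limma adjusted p of 0.0544 was the smallest value over all probe sets. That value is a tie of the adjustment and does not rank SERPINE2 first. All 4 of its probe sets had it, with unadjusted limma p from 1.86e-05 to 8.02e-05. By limma 0 of 10 member probe sets passed, 10 had an unadjusted p under 0.05, and 0% of all probe sets passed. SERPINB2, SERPINB5 and SERPINB7 were lower in 6 of 6 animals and SERPINB13 in 4 of 6.

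The calls at the 5th time turned on single animals and samples. In the main fit 6828 of all 31624 probe sets had an unadjusted limma p under 0.05. How many of all probe sets passed in the refits below is not given here, so their member counts are not a result about serpins. Without BB4870 10 member probe sets passed, without BB269 9, and without the late luteal baseline sample of PPi2, an animal of the other arm, 10. Leaving out the 5th sample of BB4800 had the opposite effect: SERPINB5 went to -0.46 and SERPINB13 to -1.84, SERPINE2 stayed at 1.71, and the smallest adjusted p among the 5 genes was 0.495. In that sample SERPINB2 was at 4.92, SERPINB13 at 4.42 and SERPINE2 at 12.11, while the suprabasal marker mean was 7.05 and the stroma score 12.29, the lowest and the highest of the 6 samples. The part of its tissue content in these values was not tested.

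At the 7th time the estimates were -1.56 ± 0.59 (log2, SE) for SERPINB2, -0.55 ± 0.42 for SERPINB5, -2.10 ± 0.93 for SERPINB7 and -1.93 ± 0.71 for SERPINB13, each lower in 5 of 6 animals. SERPINE2 was at 1.49 ± 0.38 (limma adjusted p = 0.0591), higher in 6 of 6. By limma 0 of 10 member probe sets passed, 9 had an unadjusted p under 0.05, and 0.00632% of all probe sets passed. Without BB269 1 member probe set passed, without the 5th sample of BB4800 1, and without the late luteal sample of PPi2 3. The number of all probe sets passing in these refits is not given here. From the 5th to the 7th time no member changed past the threshold, with 0 of 10 probe sets, 0 at an unadjusted p under 0.05, and 0% of all probe sets. The largest of these differences, 0.85 ± 0.47 for SERPINB5, was -0.07 without the 5th sample of BB4800.

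At the LNG times 0 of 11 fibroblast and 0 of 7 smooth muscle markers passed. The stroma score exceeded its baseline in 5 of 6 animals at the 5th time, by 1.78 on average over the 6. At the 7th it did so in 6 of 6, by 3.70 in BB4870 and by 0.32 to 1.53 in the others, with a median of 0.56. With the score as a covariate SERPINE2 was at 0.94 and 0.89 (adjusted p = 0.984 and 0.337). The 4 suprabasal and stroma relations that were computed per animal are given here with exact permutation p over animals, two-sided and adjusted over the 4. The change of SERPINE2 followed that of the stroma score at the 5th time by Pearson r (0.88, exact permutation adjusted p = 0.0185, n = 6). Spearman rho was 0.83 (exact permutation adjusted p = 0.0777). Without BB4870 and BB4800 r was 0.97, on the few animals left. The 7th time was not among the relations computed. There BB4870 had the largest change of both, 2.21 for SERPINE2 and 3.70 for the score. BB537 had the smallest of SERPINE2, 0.60, with 1.53 for the score. BB269 had 1.78 for SERPINE2 with the smallest change of the score, 0.32. At 2D2 the relation (r = 0.70, adjusted p = 0.0404 by exact permutation; rho = 0.27, adjusted p = 0.493; n = 9) rested on BB0499 and BB521, without which r was -0.29. The change of SERPINB13 followed the suprabasal mean at 2D2 (r = 0.94, adjusted p = 0.00202 by exact permutation; rho = 0.82, adjusted p = 0.0216; n = 9; r = 0.71 without PPi2 and BB770). It also did so at the 5th time (r = 0.98, adjusted p = 0.00278 by exact permutation; rho = 1, adjusted p = 0.0111; n = 6; r = 0.99 without BB4800 and BB4870).

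Whether the arms differed was tested as the 2D2 change minus the 5th change. SERPINE2 had the largest difference relative to its error, -1.16 ± 0.49 (log2, SE), with the smaller rise under DMPA (limma p = 0.0225, adjusted p = 0.533). For the clade B genes the differences were -0.46 ± 0.76 for SERPINB2, 0.76 ± 0.53 for SERPINB5, -0.67 ± 1.20 for SERPINB7 and -0.16 ± 0.92 for SERPINB13. Their 95% confidence intervals were wide, from -3.10 to 1.76 for SERPINB7. By limma 0 of 10 probe sets passed, 4 had an unadjusted p under 0.05, and 0% of all probe sets passed. A difference between the arms was thus not detectable for any member, and the interval for SERPINB13, -2.02 to 1.69, leaves room for one in either direction.

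In single animals SERPINE2 and the mean of the clade B members usually moved in opposite directions. SERPINE2 did not pass at 2D2 against the pooled baseline or under LNG. How often other genes part in this way was not counted. The mean of SERPINB2, SERPINB5, SERPINB7 and SERPINB13 lay below its baseline and SERPINE2 above in 6 of 8 animals at 1D4, 7 of 9 at 2D2, 6 of 6 at the 5th and 5 of 6 at the 7th time. The exceptions at 1D4 were PPi2, with both higher on the mean of its 2 baseline samples, and BB405, with both lower. At 2D2 they were BB521, with both lower, and PPi2, in which the clade B mean was 0.45 higher and SERPINE2 was at -0.34. In PPi2 the clade B mean was 10.73 in the early follicular and 6.97 in the late luteal baseline sample, 10.10 at 1D4 and 9.30 at 2D2, so it was lower at both times than the early follicular one. At the 7th time it was BB269, with both higher. Sizes varied: at the 5th time BB4800 had a clade B change of -6.06 with 2.40 for SERPINE2, and BB967 had -1.26 with 2.79.

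**Figure D3:**
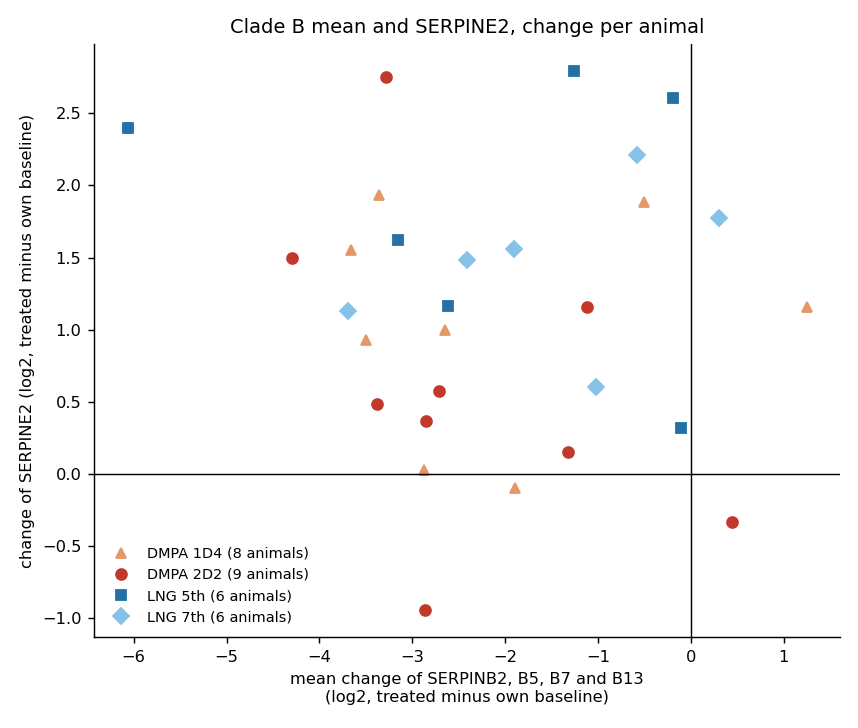
Mean log2 change of SERPINB2, SERPINB5, SERPINB7 and SERPINB13 (horizontal axis) against the log2 change of SERPINE2 (vertical axis), each point 1 animal at 1 treated time against its own baseline. Most points lie in the upper left, clade B lower and SERPINE2 higher: 6 of 8 animals at 1D4, 7 of 9 at 2D2, 6 of 6 at the 5th and 5 of 6 at the 7th time.

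Changes were set against the dose labels without a test passing for any member. At 2D2 the 3 animals labelled 0.5 had clade B mean changes of -1.32 to 0.45, those labelled 1.5 of -4.30 to -2.86 and those labelled 2.5 of -3.38 to -2.71. The lowest dose did not overlap the others, which overlapped each other; the upper end at 0.5 was PPi2, with its low baseline sample, without which the slopes given next were -1.03 for SERPINB2, -1.26 for SERPINB7 and -1.03 for SERPINB13 (limma adjusted p = 0.816, 0.818 and 0.818). SERPINB2 differed from its baseline by -1.25 to 0.58 at 0.5, by -5.33 to -3.64 at 1.5 and by -3.61 to -2.68 at 2.5, and SERPINB13 had a like split. SERPINB7 overlapped between labels, with -3.22 to 0.69 at 0.5 and -5.38 to -2.78 at 1.5, as did SERPINB5, with -0.47 to 0.10, -1.61 to -0.17 and -1.47 to -0.36. SERPINE2 ranged from -0.34 to 1.16, from -0.95 to 1.50 and from 0.48 to 2.75. As a linear slope per unit of labelled dose the estimates were -1.31 ± 0.53 (log2, SE; limma adjusted p = 0.525) for SERPINB2, -1.44 ± 0.64 (adjusted p = 0.526) for SERPINB13, -1.79 ± 0.85 (adjusted p = 0.536) for SERPINB7, -0.38 ± 0.41 (adjusted p = 0.776) for SERPINB5 and 0.47 ± 0.38 (adjusted p = 0.684) for SERPINE2. By limma 0 of 10 member probe sets passed, 5 had an unadjusted p under 0.05, and 0.00949% of all probe sets passed. The suprabasal marker mean had the same pattern, with changes of -3.39 to 0.66 at 0.5 and of -5.17 to -4.03 at the higher labels. The GAPDH difference also varied with the label, with changes of -0.05 to 0.59 at 0.5, 0.61 to 0.65 at 1.5 and 0.60 to 1.92 at 2.5. The part of either in these values was not tested. How many of all probe sets separated the lowest dose from the others in this way was not counted.

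Among the LNG animals at the 5th time the Low animals had the lower clade B values relative to baseline. SERPINB2 differed by -4.98 to -2.53 in the 3 Low and by -1.05 to -0.50 in the 3 High animals, and SERPINB13 by -6.90 to -3.52 and by -1.24 to 0.18. Neither gene's groups overlapped, nor did those of SERPINB5, at -0.77 or below and -0.17 or above. Those of SERPINB7 were just apart, at -2.72 or below and -2.58 or above. The share of all probe sets with such a gap between 3 and 3 animals was not counted. The clade B genes correlate with each other (r = 0.60 to 0.90), so their gaps are not separate observations. SERPINB12 overlapped, at -1.84 to -0.46 in the Low and -1.01 to 0.45 in the High animals. At the 7th time the labels overlapped for SERPINB2, at -4.05 to 0.88 in the Low and -1.65 to -0.18 in the High animals, and for SERPINB13, at -5.37 to -1.05 and -2.69 to 0.35. At the 5th time the same animals were split by the GAPDH change, 0.66 to 1.03 in the Low and -0.24 to 0.26 in the High ones, and by the suprabasal mean, -5.50 to -3.34 and -1.57 to 0.14. The part of either in the serpin values was not tested. The High minus Low difference was 3.03 ± 1.12 (log2, SE) for SERPINB2, 4.61 ± 1.26 for SERPINB13, 3.93 ± 1.79 for SERPINB7 and 2.66 ± 0.74 for SERPINB5, with limma adjusted p of 0.208, 0.106, 0.307 and 0.108. SERPINE2 differed by 0.14 ± 0.77 (adjusted p = 0.949). By limma 0 of 10 probe sets passed, 6 had an unadjusted p under 0.05, and 0% of all probe sets passed. Without the 5th sample of BB4800 the difference for SERPINB5 was 0.85. With no animal block 3 member probe sets passed, SERPINB13 among them (4.37, limma adjusted p = 0.0396). How many of all probe sets then passed is not given here. The Low label refers to no stated amount, and of the High samples that of BB4870 also carries the label A-.

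**Figure D4:**
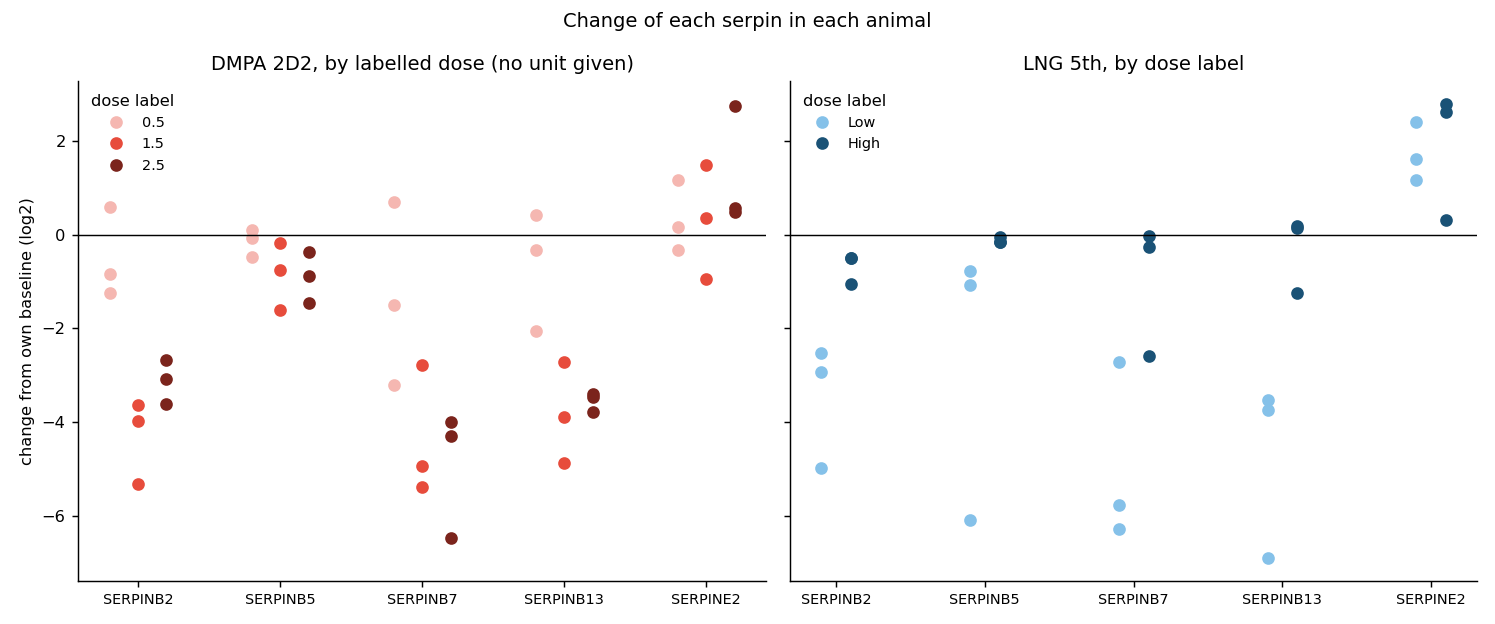
Log2 change from the animal's own baseline (vertical axis) for 5 serpins, by labelled DMPA dose at 2D2 (left) and by LNG dose label at the 5th time (right); each point is 1 animal. The animals at 0.5 and the High animals lie nearest to 0 for SERPINB2 and SERPINB13, at -1.25 to 0.58 and -1.05 to -0.50 for SERPINB2, and no such order is seen for SERPINE2.

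Other clade B serpins gave a mixed picture. Of 3 measured at 2D2, SERPINB6, a widely expressed intracellular inhibitor of cathepsin G and trypsin-like enzymes, fell by 0.79 ± 0.17 (log2, SE; limma adjusted p = 0.00103). SERPINB11 fell by 2.18 ± 0.64 (adjusted p = 0.0108), and SERPINB9, the granzyme B inhibitor of lymphocytes, was at -0.02 ± 0.14 (adjusted p = 0.931). SERPINB6 and SERPINB11 also fell at 1D4, by 0.50 ± 0.18 and 2.04 ± 0.67 (adjusted p = 0.0381 and 0.0275). Over all 11199 named genes the median change at 2D2 was 0.05, with 1921 higher and 1579 lower.

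Of 11 serpins of other clades measured at 2D2, 2 rose and 2 fell, with a median of 0.17, shares near those of all 11199 named genes. SERPINA5, the protein C inhibitor, rose by 0.79 ± 0.21 (log2, SE; limma adjusted p = 0.00561) and SERPINI1, neuroserpin, by 0.75 ± 0.23 (adjusted p = 0.0139), while SERPINA1, the inhibitor of neutrophil elastase, fell by 0.75 ± 0.22 (adjusted p = 0.0114) and SERPINA12, or vaspin, by 1.21 ± 0.46 (adjusted p = 0.0433). SERPINA5 had a baseline mean of 5.33, under the filter's cut of 5.53 on the mean over all samples. It was kept only through samples where it is higher, so its rise carries no weight here. At 1D4 the list had 3 rises and 0 falls, where 1311 of all named genes rose and 1583 fell. Under LNG, 0 of these passed at either time.

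The proteases that serpins meet were read from lists chosen for their function. Of 15 epithelial trypsin-like and chymotrypsin-like proteases 10 fell and 0 rose at 2D2, with a median of -2.53. Among all 11199 named genes 1921 rose and 1579 fell at that time. KLK12 and KLK6, kallikreins that take part in shedding of squamous cells, were at -5.25 ± 0.80 and -4.55 ± 0.75 (log2, SE; limma adjusted p = 0.000155 and 0.000157). TMPRSS11B, a membrane-bound serine protease of squamous mucosa, was at -7.31 ± 1.13 (adjusted p = 0.000155), and PRSS27 at -3.50 ± 0.58 (adjusted p = 0.000157). At 1D4 also 10 of the 15 fell and 0 rose, where 1311 of all named genes rose and 1583 fell. Of 12 cathepsins and leukocyte proteases 3 rose and 1 fell at 2D2, shares not far from those of all named genes. CTSZ, CTSO and CTSS rose by 0.84 ± 0.26, 0.73 ± 0.22 and 0.86 ± 0.26 (limma adjusted p = 0.0137, 0.0141 and 0.015), and CTSV, the cathepsin L relative of epidermis, fell by 1.29 ± 0.46 (adjusted p = 0.0321).

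The plasminogen and thrombin system, to which the targets of SERPINB2 and SERPINE2 belong, had few calls against the pooled baseline. Of 12 genes measured at 2D2, 2 rose and 0 fell, with a median of 0.01. Of all 11199 named genes 1921 rose and 1579 fell. PLAU, the gene of urokinase, rose by 0.67 ± 0.19 (log2, SE; limma adjusted p = 0.0102), and F2RL1, a receptor cut by trypsin-like proteases, by 0.56 ± 0.21 (adjusted p = 0.0453). At 1D4 1 of the 12 passed, as higher. At 1D4 PLAU was at 0.39 ± 0.20 (limma adjusted p = 0.152). Against the follicular baseline alone 4 of the 12 rose and 2 fell at 2D2, where 2559 of all named genes rose and 2350 fell. Macrophage markers, a possible second source of SERPINB2 transcripts, had 1 rise and 1 fall among 12 at 2D2 against the pooled baseline. Against the follicular one they had 7 rises and 1 fall. Genes listed as neutrophil markers had 3 falls among 4 against the pooled baseline. Of these, S100A8 and S100A9 were at 13.81 and 14.16 in the baseline and CSF3R at 6.17. Their cells of origin were not tested, so a change in neutrophils cannot be read from them. Columnar epithelium markers had 7 rises and 1 fall among 11; their part in these results was not tested.

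The genes whose signal followed each member most closely over the 57 samples were these. For SERPINB2 they were CNFN, a cornified envelope gene, MAL and ANXA1 (Pearson r = 0.93 each). For SERPINB5 they were FAM83B, PERP, a desmosome gene, and LYPD3 (r = 0.96, 0.96 and 0.95), for SERPINB7 ALOXE3, SBSN and DLX3 (r = 0.98, 0.97 and 0.96), and for SERPINB13 ENDOU, OVOL1 and TPRG1 (r = 0.96 each). For SERPINE2 they were CREB3L1, TIMP1 and FKBP10 (r = 0.87, 0.86 and 0.86), of which TIMP1 inhibits matrix metalloproteases and FKBP10 helps to fold collagen. Among the members, clade B genes correlated with each other at r = 0.60 to 0.90 and with SERPINE2 at -0.57 to -0.51. These correlations describe samples that share animals, conditions and tissue composition.

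Agreement between probe sets of a gene sets how far a single one can be trusted. The 3 kept probe sets of SERPINB13 correlated at 0.99 over the 57 samples, and the fourth, under the filter, at 0.87 or more with them. The 4 of SERPINE2 correlated at 0.97 to 0.99, though 2 of them read the same target sequence and are not independent. The second probe set of SERPINB5, with a mean of 4.13 near the floor, correlated at 0.46 with the bright one. SERPINB12, fitted without the filter, was 3.44-fold lower at 2D2 (log2 -1.78 ± 0.50, SE; limma adjusted p = 0.0122) and lower in 8 of 9 animals, and at 1D4 it was at -1.41 ± 0.53 (adjusted p = 0.0601). Against the follicular baseline its 2D2 difference was -2.64 ± 0.48 (adjusted p = 0.000142), and against the luteal one -1.27 ± 0.49 (adjusted p = 0.12).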

How the data were processed

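The authors deposited 1 table of log2 values with a column per array, made with affy and Partek per the submitters' processing notes, without versions. How they were normalized is not stated in the labels. Values were used as deposited; no column was left unmapped. Of 52865 probe sets, 158 controls were removed, as was every probe set whose mean fell below the 40 percent point of all means (log2 5.53). A duplicate array was averaged with its partner. Models were fitted to all kept probe sets with limma 3.58.1 in R 4.3.3 (statmod 1.5.0), with a fixed term for each animal as block, since baseline and treated samples come from the same animals, and adjusted by Benjamini-Hochberg over 31624 probe sets at 0.05. Phases were compared in the 28 baseline samples alone. P-values measure the spread between biopsies of these animals. The 8 members and all lists were chosen with earlier results of these data known. Named were all members, from each other list up to 4 genes with the smallest p at DMPA 2D2, and for each member the 3 genes of highest r. A model of the same form was tested on simulated data of 31624 probe sets with independent noise and 200 changed by 1 log2 unit. It recovered 85.5% at 2D2 and 84% at LNG 5th. The members had larger errors than the median probe set, at LNG 5th 0.38 for SERPINE2 and 0.93 for SERPINB7 against a median of 0.15. Those shares therefore do not give the power for the members. Alternatives changed the filter, block, weights, centring, covariates and animals. Sequences and genome positions were not used here.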

Additional observations from a re-analysis of the deposited data

Results flagged for a closer look

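Of 48 groups of 4 to 10 samples (6 genes in 8 phases or times), 3 held a sample far from the others by Dixon's criterion at the 95% level, and chance alone would give about 1 in 20. The LNG 5th sample of BB4800 was at 5.29 for SERPINB5 where the nearest of the other 5 was at 10.17; its basal keratinocyte mean was 10.25. The LNG 5th sample of BB4870, labelled High and A-, was at 8.55 for SERPINE2, with the nearest at 11.01. The early luteal sample of BB981 was at 6.43 for SERPINB12, with the nearest at 4.18. No explanation was tested.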

How the results depend on the processing

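Counts are member probe sets that passed. The share of all probe sets passing under each setting is not given beside them. A count here or in the paragraphs below may therefore only follow the whole array and is not a result about serpins. With 1 probe set per named gene they were 3 at 2D2, 4 at 1D4, 2 at LNG 5th, 3 against the luteal and 5 against the follicular baseline. With the GAPDH difference as a covariate they were 0 at 2D2 and against the luteal and the follicular baseline, and 4 at 1D4; with the suprabasal mean, chosen after seeing the data, 0 at 2D2 and 0 at 1D4; with the stroma score 0 at 1D4. Array weights gave 8 at LNG 5th, 8 at 7th, 4 among phases and 3 for High minus Low. Baseline phases kept separate gave 8 at 2D2, 10 at 5th and 7 at 7th, and a filter at the 60th percentile 8 at 5th and 3 at 7th. All 57 samples in the phase fit gave 3 for late luteal minus early follicular. The animal block pairs samples by design. A random block gave 8 at 5th, 1 for luteal minus follicular, 1 for late luteal minus early follicular, 1 among phases and 4 for High minus Low, and no block 3 for High minus Low; of 65 single values with no block 60 kept their direction and side of the threshold.

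Leaving out 1 animal or sample, including 2 samples chosen after seeing the data (the late luteal one of PPi2 and the 5th one of BB4800), moved the counts over 4 to 9 at 1D4, 0 to 10 at 5th, 0 to 3 at 7th, 5 to 9 against the follicular baseline and 0 to 3 for High minus Low. Without the PPi2 sample they were 10 at 5th, 3 at 7th and 3 for High minus Low.

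Outside these, 36 values changed sign, 4 of which had passed, and none passed after turning (lowest adjusted p = 0.366). With the suprabasal mean SERPINB5, SERPINB7 and SERPINB13 were at 0.59, 0.43 and 0.73 at 2D2; SERPINB2, SERPINB5 and SERPINB13 at 0.027, 0.31 and 0.34 at 1D4; SERPINB2, SERPINB5, SERPINB7 and SERPINB13 at 0.10, 0.28, 0.52 and 0.34 at 7th; SERPINB7 and SERPINB13 at 0.58 and 0.39 for 2D2 minus 1D4; and SERPINB2, SERPINB7 and SERPINB13 at 0.30, 0.53 and 0.88 for 2D2 minus LNG 5th. With the GAPDH difference SERPINB5 was at 0.19 at 2D2 and 0.20 for the dose slope; SERPINB2, SERPINB7 and SERPINB13 at 0.23, 1.18 and 1.00 for 2D2 minus 1D4, at 0.19, 0.36 and 0.80 for 2D2 minus LNG 5th and at 0.50, 0.93 and 0.31 for luteal minus follicular; and SERPINB2 at 0.16 for late luteal minus early follicular. SERPINB2 for luteal minus follicular was at 0.25 with all samples and 0.067 with weights; with weights SERPINB7 was at 0.28 for 2D2 minus 1D4 and SERPINB13 at -0.11 for 7th minus 5th. With the stroma score SERPINB5 and SERPINE2 were at -0.35 and 0.18 for 2D2 minus 1D4. SERPINE2 for High minus Low was at -0.84 with no block and -0.44 with a random one, and another of its probe sets gave -0.15 for luteal minus follicular. The cause was not tested.

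With 1 animal or sample left out, ranges that crossed 0 were -0.077 to 0.12 for SERPINB5 in 2D2 minus 1D4; for 7th minus 5th -0.067 to 1.15 for SERPINB5 and -0.073 to 0.99 for SERPINB13; for 2D2 minus LNG 5th -0.21 to 1.04 for SERPINB5 and -1.10 to 0.40 for SERPINB13; for luteal minus follicular -0.13 to 0.14 for SERPINB2 and -0.066 to 0.30 for SERPINE2; -0.61 to 0.028 for SERPINB2 in late luteal minus early follicular; and -0.30 to 0.94 for SERPINE2 in High minus Low. Dim probe sets limit SERPINB12.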
